A study of Mus musculus with 30 samples.

Results

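Tubulin genes and the genes of proteins that bind, tip, sequester or fold tubulin were followed through a prefrontal cortex data set of mice heterozygous for Adnp, the gene of activity-dependent neuroprotective protein. The members were taken by name from a list of 40 genes, described as cytoskeletal partners of ADNP, by mapping the Ensembl identifiers of the expression table to mouse symbols. All 40 were found among the 18240 genes of the table, and all 40 were among the 16824 genes tested (mean normalized count of at least 10 over all libraries). They comprise 5 alpha tubulins, 7 beta tubulins, 4 gamma, delta and epsilon tubulins, 9 microtubule-associated proteins (MAPs), 6 end-binding and plus-end proteins, 4 stathmins and 5 tubulin cofactor and ligase genes. The tissue was sequenced as stranded poly(A) RNA libraries from C57BL/6J mice of both sexes at postnatal day 40. There were 8 wild-type (WT) vehicle libraries (4 female, 4 male), 7 Adnp heterozygous (HT) vehicle libraries (4 female, 3 male), 8 HT fluoxetine libraries (4 female, 4 male) and 7 HT lithium libraries (3 female, 4 male). Fluoxetine is a selective serotonin reuptake inhibitor and lithium a mood stabilizer that inhibits glycogen synthase kinase 3. WT mice given either drug were not analysed here, so each drug comparison is within HT libraries or against WT vehicle. The sources used here give neither the drug doses and duration of dosing nor the part of Adnp removed by the allele. The labels do not state that replicates were separate mice, so a p-value here reflects only how these libraries vary.

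Microtubules are polymers of alpha and beta tubulin dimers that form the tracks of axons and dendrites. Gamma tubulin nucleates them, MAPs such as tau and MAP2 bind along their lattice, end-binding proteins track their growing tips, and stathmins bind free dimers and favour disassembly. The tubulin cofactors fold and assemble the dimers, and the isotypes differ mainly in their acidic C-terminal tails. ADNP carries a short NAP motif that is known to interact with end-binding proteins, and through them the protein has been tied to tau binding and microtubule dynamics in neurons.

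Recovered read totals ranged from 23771758 to 34307061 per library. As a check of the genotype labels, the annotated Adnp gene and Gm20716, a gene that shares Adnp exons on the same strand, were read together, and their summed normalized count was 4316 ± 75.2 (SD, n = 8) in WT vehicle and 3663 ± 93.5 (SD, n = 7) in HT vehicle libraries. Every HT library lay between 3404 and 3887 and every WT library between 4226 and 4433, without overlap. The check as planned was Adnp alone, and the sum with Gm20716 was not part of the plan. Adnp alone was higher in HT vehicle libraries (1898 ± 157 in WT and 2251 ± 137 in HT, limma adjusted p = 0.00996), and Gm20716 was lower (2417 ± 158 and 1412 ± 90.2, limma adjusted p = 1.16e-06). The summed count of 8 excitatory neuron markers ran from 42785 to 70645, so these cortical markers were high in each library. Markers of neighbouring regions varied far more, from 9666 to 36772 for 13 neuroblast and olfactory bulb genes and from 6340 to 48146 for 9 striatal genes. The summed count of 9 mature oligodendrocyte markers also varied, from 55468 to 145220. HT vehicle female 1 and HT lithium male 4 had the highest olfactory bulb sums. Where leaving out either moved a main count, a median or a named member's fold change by over 1.5 times or turned its sign, the value without it follows in the same paragraph or the next.

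Per kilobase of annotated exon, the most abundant member in WT vehicle libraries was Tuba1a, the main alpha tubulin of postmitotic neurons, at 18778 ± 560.4 normalized counts per kb (SD, n = 8). Its lowest WT library, 18071, was above the highest of every other member. The beta tubulin Tubb2a followed at 11471, then Tuba1b at 10136, Tubb4a, an isotype prominent in myelinating cells as well as neurons, at 9889, and the neuronal stathmin Stmn3 at 8602. Neighbours in this run from Tubb2a to Tubb3 overlapped in their WT libraries, so their order is not resolved. Tubb3, the neuron-specific beta tubulin, stood at 6165 ± 325 per kb and did not overlap Tubb5 below it, at 4505 ± 179. Among lattice-binding proteins, Map1a was at 3721, and tau (Mapt), Map1b and Map2, which organise axonal and dendritic bundles, overlapped at 2011, 1985 and 1924 per kb. The end-binding protein Mapre3 (EB3) was at 1396 per kb, Mapre2 (EB2) at 785 and Mapre1 (EB1) at 301. Per kb of the longest transcript, Mapre3 was at 1977.7 and Mapre2 at 1988.5, so the order of these genes depends on the length used. Tuba1c, Tubb6 and Tube1 were lowest, at 20.2, 19.5 and 8.51 per kb. Between the 4 genotype and treatment groups, 33 of the 40 members kept their rank within 1 place and the largest shift was 5 places. Dividing by the longest transcript instead of all exons moved 7 members by more than 3 ranks. Among them were the long gene Map2 (1924 or 5057 per kb) and the short gene Stmn1 (7161 or 12984 per kb). Stmn1 thereby moved from rank 6 to rank 2, with a mean above that of Tubb2a, so the order near the top also depends on the length used.

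**Figure D1:**
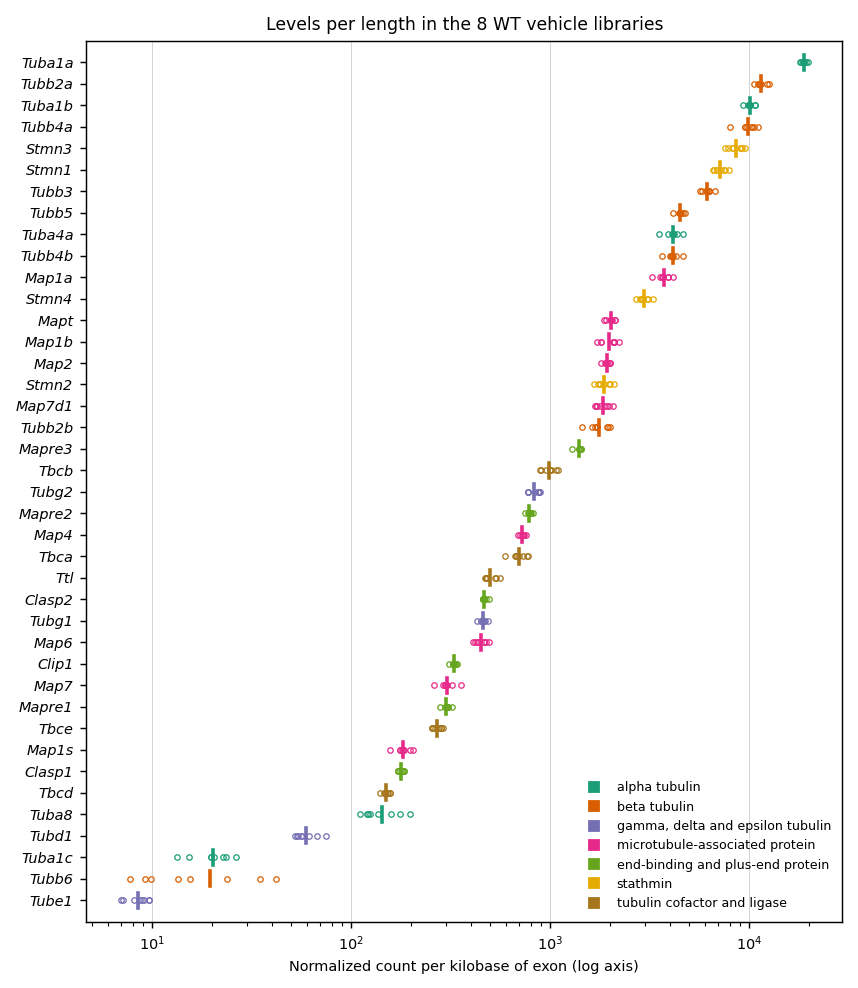
Normalized count per kilobase of exon (x axis, log scale) for the 40 members in the 8 WT vehicle libraries; circles are libraries, vertical bars are means, and colours mark the role. Tuba1a, at 18778, lies above all other members without overlap, and Tuba1c, Tubb6 and Tube1 lie lowest, at 20.2, 19.5 and 8.51.

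Within the alpha tubulin pool, counted per kb, Tuba1a made up 56.6% ± 0.880 (SD, n = 8) in WT vehicle, 58.0% ± 1.21 (n = 7) in HT vehicle, 56.9% ± 1.18 (n = 8) in HT fluoxetine and 58.4% ± 1.71 (n = 7) in HT lithium libraries. Tuba1b held 30.5%, 29.6%, 30.4% and 29.5% in the same order, and Tuba4a 12.4%, 11.9%, 12.2% and 11.5%. Tuba8 and Tuba1c each stayed under 1% of the pool in every library. Within the beta tubulin pool, Tubb2a held 30.3%, 30.5%, 30.1% and 30.7%, and Tubb4a 26.0%, 25.1%, 25.6% and 24.6%. Tubb3 held 16.3%, 16.5%, 16.4% and 16.6%, and Tubb5, a broadly expressed isotype, 11.9%, 11.5%, 11.5% and 11.5%. Tubb2b, an isotype high in the developing brain, held 4.65% ± 0.613 in WT vehicle, 5.31% ± 0.916 in HT vehicle, 5.01% ± 0.527 in HT fluoxetine and 5.47% ± 0.936 in HT lithium libraries. These shares are given as a description, and the group ranges of Tuba1a, Tubb3, Tubb5 and Tubb2b overlapped in every pairing. The alpha shares leave out Gm49450, an annotated gene described below, whose exons lie wholly within those of Tuba1a and Tuba1b. The Tuba1a and Tuba1b shares therefore also depend on how reads were divided between these genes and Gm49450.

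Several members are near-identical copies, which bears on how reads were divided among them. Of the distinct 31-base words of each gene's transcripts in the GENCODE M21 annotation, 77.0% in Tuba1a, 68.9% in Tuba1b, 55.3% in Tuba1c, 56.4% in Tubb2a, 48.6% in Tubb4b and 43.1% in Tubb2b also occurred in another gene, pseudogenes included. Values for these members are therefore uncertain as single genes. To a lesser degree this holds for Tbca (25.3%), Tubg2 (23.6%), Stmn1 (22.4%) and Tubg1 (19.2%). Tubb3 (3.21%), Tubb5 (3.47%), Tubb4a (1.87%), Tubb6 (3.24%) and Tuba8 (1.93%) were nearly free of shared words. The coding sequences of Tuba1a and Tuba1b were 98.3% identical over 1353 bases, with 23 differing bases, and those of Tubb2a and Tubb2b 96.5% identical over 1335 bases, with 47. The last 60 coding bases before the stop codon of 5 beta tubulins are shown because they encode the C-terminal tails. They are read from the GENCODE M21 transcripts on GRCm38, 5′ to 3′: Tubb2a at chr13:34074471-34074530, minus strand. Tubb2b lies at chr13:34127474-34127533, minus strand. Tubb3 lies at chr8:123421620-123421679, plus strand, Tubb4a at chr17:57080693-57080752, minus strand, and Tubb5 at chr17:35834985-35835044, minus strand. In the first pair, Tubb2a and Tubb2b, capitals mark the bases that differ between them. In the last 3, capitals mark bases in no run of 10 shared with the coding sequence of another beta tubulin of the list.
Tubb2a: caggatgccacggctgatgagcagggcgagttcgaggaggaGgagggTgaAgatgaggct
Tubb2b: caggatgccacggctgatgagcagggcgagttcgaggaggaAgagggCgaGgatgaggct
Tubb3: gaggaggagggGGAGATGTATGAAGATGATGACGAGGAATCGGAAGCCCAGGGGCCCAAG
Tubb4a: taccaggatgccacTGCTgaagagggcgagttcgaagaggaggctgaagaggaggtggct
Tubb5: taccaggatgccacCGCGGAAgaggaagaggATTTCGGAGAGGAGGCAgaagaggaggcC
The Tubb2a and Tubb2b ends differ at 3 bases, none of which changes the encoded amino acid, so both encode the same tail. The Tubb3 end, by contrast, is mostly its own. A further annotated gene, Gm49450 (chr15:98932137-98953551, minus strand), has 899 exonic bases, of which 52.6% lie in Tuba1a exons and 47.4% in Tuba1b exons. Gm49450 ranged from 378 to 5178 normalized counts across libraries. The sum of Tuba1a, Tuba1b and Gm49450 was 55575 ± 2730 in WT vehicle, 55083 ± 3401 in HT vehicle, 52811 ± 2604 in HT fluoxetine and 53502 ± 3733 in HT lithium libraries (SD, n = 8, 7, 8 and 7). These sums overlapped between all 4 groups.

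No member differed between HT vehicle and WT vehicle libraries at an adjusted p under 0.05 by limma, where 0.731% of all genes tested did (123 of 16824), nor by edgeR or DESeq2. At an unadjusted p under 0.05 there was 1 member, Tubg2, by each of the 3 tools, against 6.6% of all genes, and 0 by limma without HT vehicle male 2. Fluoxetine against vehicle in HT libraries gave 0 members (0.0357% of all genes), with 1, 2 and 4 members at an unadjusted p under 0.05 by limma, edgeR and DESeq2 (2.63% of all genes by limma). With 1 library left out the limma count for fluoxetine ran from 0 (without any 1 of 12 libraries) to 5. It was 5 without HT vehicle female 1 (Tuba1a, Tubb2a, Tubb3, Tubb5 and Ttl, all lower), where 3.29% of all genes were at that level. It was also 5 without HT fluoxetine female 4. The fluoxetine count was 4 without HT vehicle male 2 or HT fluoxetine male 2, and 3 without HT vehicle male 1 or HT lithium male 2. Without HT lithium male 4 the fluoxetine count was 2. Lithium against vehicle gave 0 members (0.0892% of all genes) and 0 at an unadjusted p under 0.05 by each tool (5.72% of all genes by limma). That lithium count was 4 by limma without HT vehicle female 1, with Tuba4a, Tubb5 and Ttl lower and Tuba8 higher, where 10.1% of all genes were. It was 2 without HT lithium male 2 and 1 without any 1 of HT vehicle male 2, HT lithium female 2 and HT lithium male 1. The drug comparisons share the HT vehicle libraries with each other and with the genotype comparison. The fold changes below 0 numbered 32 of 40 for genotype (median log2 fold change -0.033), 29 of 40 for fluoxetine (-0.020) and 24 of 40 for lithium (-0.017), beside medians over all genes of -0.0010, -0.0016 and -0.0039. Single libraries moved these medians. The genotype median was -0.019 (28 of 40 below 0) and the fluoxetine median -0.037 (30 of 40) without HT vehicle female 1. The fluoxetine median was also -0.0073 without HT vehicle female 2, -0.012 without HT fluoxetine male 1 and -0.031 without HT fluoxetine female 3. The lithium median was 0.00027 without HT lithium male 4, with 20 of 40 below 0, and it was -0.026 without HT lithium male 2 and -0.0099 without HT vehicle male 1. The intervals limit what could have been missed: the 95% interval of the fold change lay within 1.5-fold in either direction for 38 of 40 members for genotype, 38 for fluoxetine and 37 for lithium, and within 1.1-fold for 18, 20 and 17. Tubb6 and Tuba1c, both of low count, reached beyond 1.5-fold in each of the 3 comparisons, joined by Tuba8 for lithium. No member's groups were free of overlap in these comparisons, where 0.452%, 0.0535% and 0.0773% of all genes were. In bulk tissue, fewer cells of a type and less RNA per cell cannot be told apart.

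**Figure D2:**
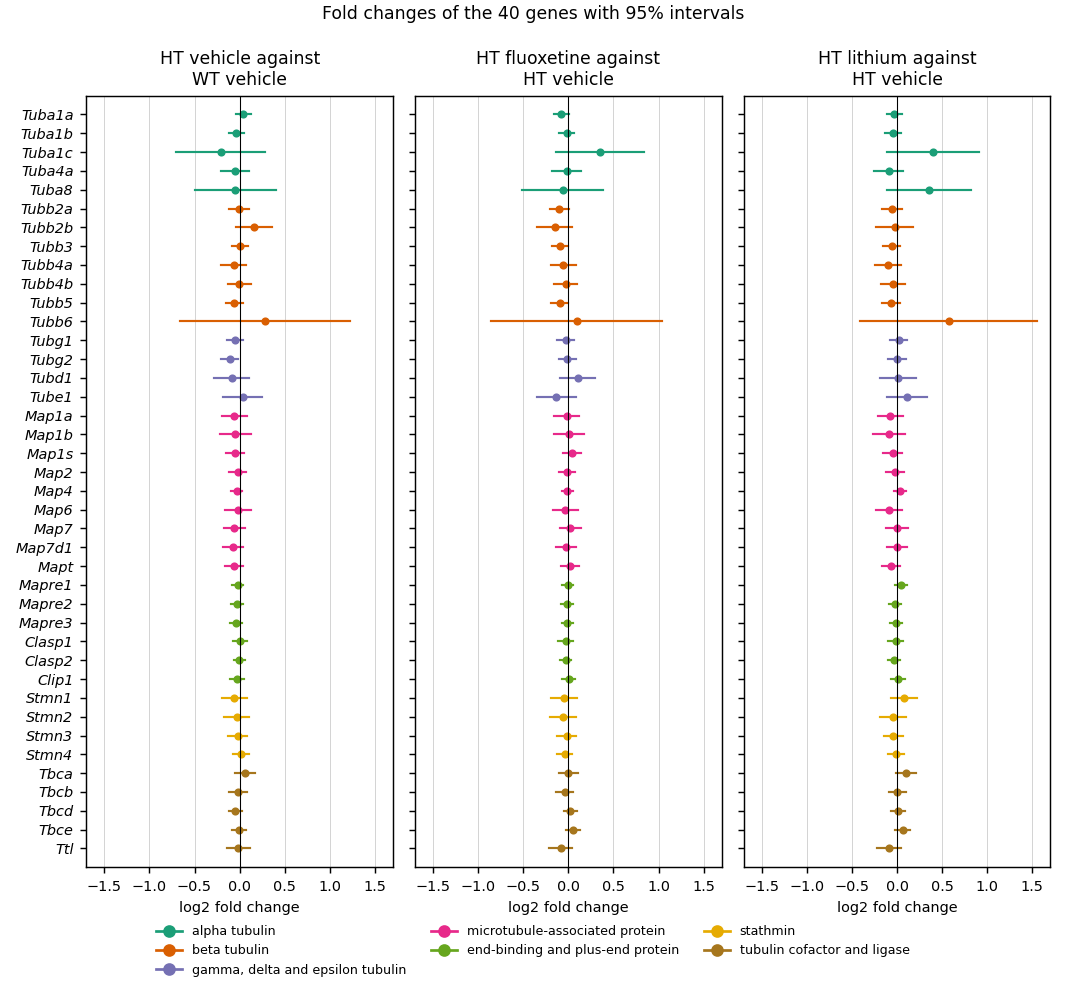
Log2 fold change (x axis) of each of the 40 members with its 95% limma interval for HT vehicle against WT vehicle, HT fluoxetine against HT vehicle and HT lithium against HT vehicle; colours mark the role. Most intervals are narrow and include 0; those of Tubb6, Tuba8 and Tuba1c are widest.

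Among the alpha tubulins, 4 of 5 had genotype fold changes below 0, 4 of 5 fluoxetine fold changes and 3 of 5 lithium fold changes, and none passed the test. The fluoxetine count was 3 of 5 without HT vehicle female 1. Tuba1a normalized counts in the WT vehicle libraries were 33615, 32582, 35651 and 33558 in females and 33981, 33939.9, 32733 and 34789 in males. Tuba1a in the HT vehicle libraries gave 32969, 34089, 33253 and 35015 in females and 33669, 35742 and 38404 in males. The libraries of both vehicle groups overlapped, and HT vehicle male 3 was the highest of all 30. With fluoxetine, Tuba1a gave 32035, 31685, 31622 and 33856 in females and 32166, 36343, 32053 and 34422 in males. With lithium, Tuba1a gave 34779.9, 35038 and 37432 in females and 29218, 34266, 34029 and 32797 in males. The 5 lowest fluoxetine libraries lay below every WT library, between 31622 and 32166, but the other 3 lay among or above them. Tuba1a against HT vehicle gave a log2 fold change of -0.08 (SE 0.0396, interval -0.16 to 0.0025) with fluoxetine and -0.03 (SE 0.0411) with lithium, with limma adjusted p = 1 and 0.908. Tuba1c normalized counts in the WT vehicle libraries were 52.0, 60.4, 45.4 and 30.4 in females and 54.0, 45.4, 34.9 and 46.6 in males. Tuba1c in the HT vehicle libraries gave 40.6, 46.9, 33 and 53.8 in females and 19.96, 57.4 and 37.9 in males. Both vehicle groups spanned a wide range at this low level. With fluoxetine, Tuba1c gave 45.8, 49.0, 60.9 and 57.9 in females and 36.9, 57.6, 50.8 and 44.6 in males. With lithium, Tuba1c gave 45.1, 57.2 and 45.3 in females and 22.4, 48.9, 74.8 and 108 in males. HT lithium male 4 was the highest of the 30 and HT vehicle male 1 the lowest. Tuba1c, a minor alpha tubulin, had means of 46.1 ± 9.80 in WT vehicle, 41.4 ± 12.8 in HT vehicle, 50.4 ± 8.07 in HT fluoxetine and 57.4 ± 27.2 in HT lithium libraries (SD, n = 8, 7, 8 and 7). Its lithium libraries ranged from 22.4 to 108, wider than any other group, and its lithium log2 fold change of 0.40 had an interval of -0.11 to 0.91. Without HT lithium male 4 that fold change was 0.24. Tuba4a, an alpha tubulin without a genetically encoded C-terminal tyrosine, had means of 15300, 14685, 14516 and 13744 in the same order, with SDs from 1087 to 1897.

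The beta tubulins gave fold changes below 0 in 4 of 7 members for genotype, 6 of 7 for fluoxetine and 6 of 7 for lithium, none of which passed the test. These were 2 of 7, 6 of 7 and 5 of 7 without HT vehicle female 1. Tubb3 normalized counts in the WT vehicle libraries were 10554, 10889.5, 12549 and 11777 in females and 11469.9, 11392, 11702 and 11792 in males. Tubb3 in the HT vehicle libraries gave 10904, 11983, 10967 and 11664 in females and 11265, 10956 and 12883 in males. The WT and HT vehicle means were 11516 ± 607 and 11517.5 ± 726, and the log2 fold change was 0.0023 (SE 0.0431), or 0.01 without HT vehicle female 1. With fluoxetine, Tubb3 gave 10613, 10649, 10398 and 11364 in females and 10491, 11586, 10534 and 10999 in males. With lithium, Tubb3 gave 11578, 11430.2 and 12256 in females and 9756, 11456, 10393 and 10058 in males. Of the 8 fluoxetine libraries, 6 lay at or below 10999 and none was above 11586, yet the group overlapped HT vehicle. The fluoxetine fold change of Tubb3 was -0.09 on the log2 scale (SE 0.0431, interval -0.18 to -0.0017), with an unadjusted limma p of 0.0459 and an adjusted p of 1. Tubb5 normalized counts in the WT vehicle libraries were 14916, 13791, 15838 and 14963 in females and 15088, 14921, 15534 and 14864 in males. Tubb5 in the HT vehicle libraries gave 12364, 14840.0, 13705 and 14336 in females and 15076, 14193 and 15825 in males. HT vehicle female 1 was the lowest of these 15, and the groups overlapped widely. With fluoxetine, Tubb5 gave 13207, 13401, 12941 and 14263 in females and 12413, 14709, 13778 and 13160.1 in males. With lithium, Tubb5 gave 14645, 14661 and 14341 in females and 12508, 14521, 13188 and 11513 in males. The highest fluoxetine library was at 14709, inside the WT vehicle range of 13791 to 15838. Tubb5 had log2 fold changes of -0.06 (SE 0.0471) for genotype, -0.10 (SE 0.0471) for fluoxetine and -0.07 (SE 0.0489) for lithium, with limma adjusted p = 0.948, 1 and 0.880. Tubb5 gave -0.03 for genotype without HT vehicle female 1 and -0.04 for lithium without HT lithium male 4.

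Tubb2a normalized counts in the WT vehicle libraries were 17824, 16954, 20236 and 19728 in females and 18413, 18100.2, 18147 and 18339 in males. Tubb2a in the HT vehicle libraries gave 16858, 18976, 17237 and 18418 in females and 18005, 17651 and 21074 in males. Both vehicle groups covered similar ranges, and HT vehicle male 3 was the highest of these 15. With fluoxetine, Tubb2a gave 16607, 16248, 16177 and 17977 in females and 16408, 19623, 17053 and 16987 in males. With lithium, Tubb2a gave 17950.4, 18410.1 and 19732 in females and 15123, 18694, 17059.6 and 15890.2 in males. Of the 8 fluoxetine libraries, 4 lay below every WT library, and HT fluoxetine male 2, at 19623, lay near the top of the WT range. The fluoxetine log2 fold change of Tubb2a was -0.10 (SE 0.0516, interval -0.21 to 0.0049), with limma adjusted p = 1. Tubb2b normalized counts in the WT vehicle libraries were 3729, 4565, 3859 and 4407 in females and 3950.3, 3334, 3948 and 4459 in males. Tubb2b in the HT vehicle libraries gave 5688, 4129.8, 4177 and 4243 in females and 4092, 4452 and 4804 in males. HT vehicle female 1 stood far above the other libraries of its group, which overlapped WT vehicle. With fluoxetine, Tubb2b gave 3947, 4035, 3316 and 4864 in females and 4131, 4372, 3459.9 and 4409.8 in males. With lithium, Tubb2b gave 4008, 3939 and 5546 in females and 3761, 4203, 4507 and 5037 in males. Outside HT vehicle, the highest libraries were HT lithium female 3 and male 4 and HT fluoxetine female 4, and all groups overlapped. Tubb2b had log2 fold changes of 0.16 for genotype (SE 0.0945), -0.15 for fluoxetine (SE 0.0945) and -0.03 for lithium (SE 0.0981), with limma adjusted p = 0.894, 1 and 0.966. The Tubb2b values were 0.10, -0.09 and 0.03 without HT vehicle female 1, and without HT lithium male 4 its lithium value was -0.06. Since Tubb2a and Tubb2b share words, their sum is given as well: 22499 ± 1101, 22829 ± 1446, 21202 ± 1494 and 21979.7 ± 1946 in WT vehicle, HT vehicle, HT fluoxetine and HT lithium libraries. Tubb4a had means of 22032, 20878, 20200 and 19494 in the same order, with SDs from 1526 to 2559, and Tubb4b means of 8607, 8565, 8409 and 8256.

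Of the gamma, delta and epsilon tubulins, which serve nucleation and the centriole, Tubg2 had the smallest p of any member in the genotype comparison. Tubg2 normalized counts in the WT vehicle libraries were 1359.9, 1356, 1534 and 1530.5 in females and 1357, 1469.9, 1539 and 1551 in males. Tubg2 in the HT vehicle libraries gave 1272, 1331, 1336 and 1290.3 in females and 1447, 1308 and 1440.4 in males. In HT vehicle 5 of the 7 libraries were below every WT library, and HT males 1 and 3 lay inside the WT range. With fluoxetine, Tubg2 gave 1288, 1241, 1468 and 1392 in females and 1287, 1348, 1373 and 1340.0 in males. With lithium, Tubg2 gave 1476, 1371 and 1404 in females and 1402, 1353, 1284 and 1139 in males. The drug groups sat at the level of HT vehicle, with HT lithium male 4 lowest of all 30. Tubg2 in HT vehicle differed from WT by -7.43% (log2 fold change -0.11, SE 0.0453, interval -0.20 to -0.02), with an unadjusted limma p of 0.0206 and an adjusted p of 0.544. Tubg2 shares 23.6% of its words with Tubg1, which differed by genotype by -0.05 on the log2 scale (SE 0.0446, limma adjusted p = 0.948), or -0.03 without HT vehicle female 1. Their sum was 2502 ± 122 in WT vehicle and 2351 ± 120 in HT vehicle libraries. Tubd1 and Tube1, the delta and epsilon tubulins of centrioles, were at means of 123 ± 16.7 and 66.7 ± 8.08 in WT vehicle and 117 ± 14.0 and 68.9 ± 12.8 in HT vehicle libraries.

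**Figure D3:**
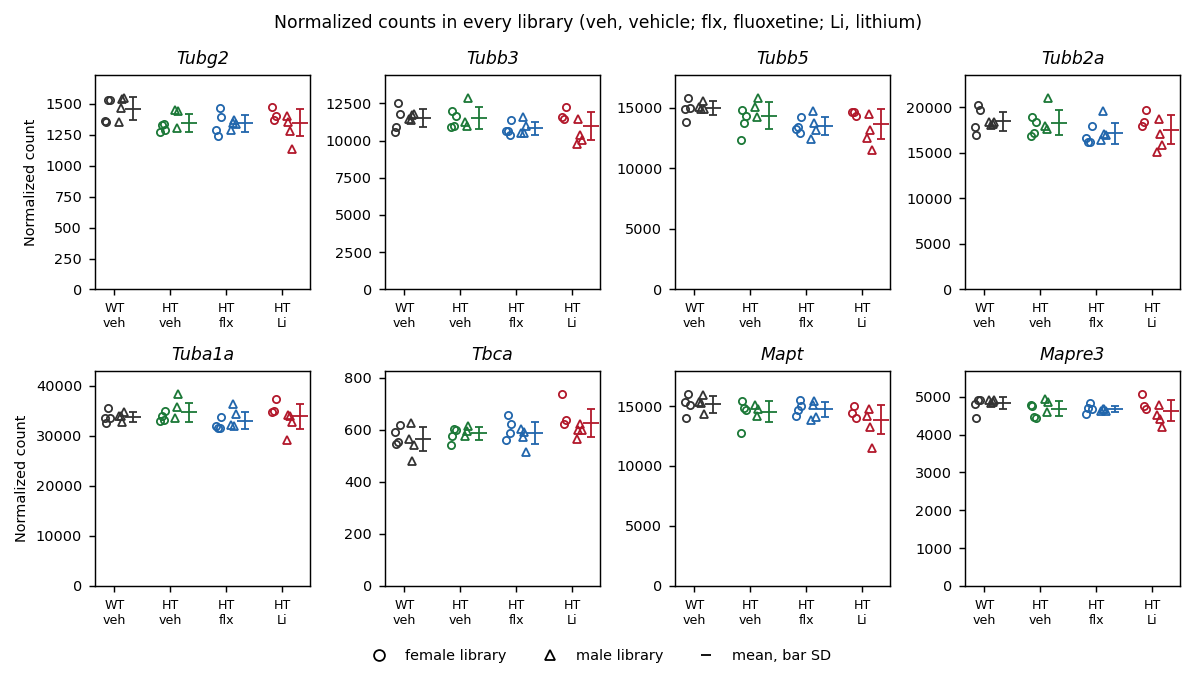
Normalized counts (y axes, from 0) of 8 members in every library by group; circles are female and triangles male libraries, and the bar beside each group is the mean ± SD. Tubg2 sits lower in most HT libraries than in WT but overlaps, and the Tubb5 fluoxetine libraries lie in the lower part of the WT range or below it.

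All 9 MAPs had genotype fold changes below 0, with log2 values from -0.08 (Map7d1, a kinesin-1 recruiting factor) to -0.02 (Map6, a factor that stabilises microtubules against cold) and limma adjusted p of at least 0.942. Mapt normalized counts in the WT vehicle libraries were 15301, 13994, 16004 and 15068 in females and 15338, 15232, 15896 and 14328 in males. Mapt in the HT vehicle libraries gave 12781, 15450.2, 14846 and 14631 in females and 15058, 14205 and 14736 in males. HT vehicle female 1 was the lowest of these, and the other 6 HT libraries lay within the WT range. With fluoxetine, Mapt gave 14182, 14639, 15468 and 14995 in females and 13818, 15116, 15439.7 and 14074 in males. With lithium, Mapt gave 14387, 15041 and 13985 in females and 14180.3, 14763, 13231 and 11478 in males. HT lithium male 4, at 11478, was the lowest Mapt library of all 30, followed by HT vehicle female 1. Mapt had log2 fold changes of -0.06 for genotype (SE 0.0480), 0.02 for fluoxetine (SE 0.0480) and -0.06 for lithium (SE 0.0498), with limma adjusted p = 0.948, 1 and 0.880. Mapt gave -0.03 for genotype and -0.01 for fluoxetine without HT vehicle female 1, and without HT lithium male 4 its lithium value was -0.03. Map2, the dendritic MAP, had means of 31645 ± 1168, 31275 ± 1830, 30863 ± 1665 and 30748.7 ± 2087 in WT vehicle, HT vehicle, HT fluoxetine and HT lithium libraries. Map1b, an axonal growth MAP, ranged more widely within groups, with means of 31449, 30325, 30601 and 28465 and SDs from 2879 to 4263. With lithium 7 of 9 MAPs had fold changes below 0 and with fluoxetine 5 of 9. Without HT lithium male 4 the lithium count was 5 of 9, as Map2 and Map7 turned positive (0.0024 and 0.03), and without HT vehicle female 1 Map6 turned positive for genotype (0.02), leaving 8 of 9 below 0.

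The end-binding proteins EB1 and EB3 bind the growing plus end, and their genes were among the least variable members. Mapre1 normalized counts in the WT vehicle libraries were 2382, 2511, 2360.3 and 2354 in females and 2336, 2408, 2176 and 2302 in males. Mapre1 in the HT vehicle libraries gave 2323, 2196, 2292 and 2338 in females and 2372, 2475 and 2202 in males. All HT vehicle libraries lay within the WT range. With fluoxetine, Mapre1 gave 2340.5, 2239, 2220.1 and 2192 in females and 2345, 2380.4, 2442 and 2281 in males. With lithium, Mapre1 gave 2381, 2319 and 2302 in females and 2445, 2356, 2646 and 2392 in males. HT lithium male 3 was the highest of the 30, and the groups overlapped. Mapre3 normalized counts in the WT vehicle libraries were 4823, 4440.1, 4908 and 4909 in females and 4920.3, 4839.6, 4872 and 4923 in males. Mapre3 in the HT vehicle libraries gave 4793, 4746, 4459 and 4434 in females and 4948, 4599.5 and 4853 in males. All but 1 WT library lay between 4823 and 4923, and HT vehicle libraries spread from 4434 to 4948. With fluoxetine, Mapre3 gave 4551, 4713, 4826 and 4684 in females and 4629, 4666, 4676 and 4618 in males. With lithium, Mapre3 gave 5076, 4756 and 4668 in females and 4515, 4794, 4408 and 4212 in males. The fluoxetine group was tight, from 4551 to 4826, and HT lithium male 4 was the lowest of all 30 and HT lithium female 1 the highest. The genotype log2 fold changes were -0.02 for Mapre1 (SE 0.0315, interval -0.09 to 0.04) and -0.04 for Mapre3 (SE 0.0313, interval -0.10 to 0.03), with limma adjusted p = 0.967 and 0.948. Mapre2, Clasp1, Clasp2 and Clip1, the other plus-end genes, had genotype log2 fold changes between -0.03 and 0.0034. Without HT vehicle female 1, Clasp1 turned from 0.0034 to -0.0047 and Clasp2 from -0.0025 to 0.01. Residual SDs on the log2 scale were 0.0542 for Mapre1, 0.0531 for Mapre2, 0.0527 for Mapre3 and 0.0492 for Clasp2, each at or below the 8.36th percentile of genes of like level.

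The stathmins, which sequester tubulin dimers, had genotype log2 fold changes from -0.06 (Stmn1) to 0.01 (Stmn4), fluoxetine values all below 0 (-0.06 to -0.02), and lithium values from -0.04 to 0.08. Without HT lithium male 4 the lithium value of Stmn1 was 0.12, and Stmn2 and Stmn4 turned positive (0.0066 and 0.02). Without HT vehicle female 1 the genotype value of Stmn2 turned from -0.03 to 0.01. Stmn1 means were 13763 ± 903, 13254 ± 848, 12825 ± 1388 and 13932 ± 1935 in WT vehicle, HT vehicle, HT fluoxetine and HT lithium libraries (SD, n = 8, 7, 8 and 7), and the widest range was in the lithium group, from 10845 to 17481.5. Stmn2, a neuronal stathmin of axon maintenance, had means of 10433, 10150.5, 9793 and 9813, and the lowest library in the lithium group was at 7365. Among the folding cofactors, Tbca, the beta tubulin chaperone, had the smallest lithium p. Tbca normalized counts in the WT vehicle libraries were 593, 545, 553 and 618 in females and 565, 628, 482 and 542 in males. Tbca in the HT vehicle libraries gave 541, 578, 603 and 599 in females and 578, 594 and 614 in males. The HT vehicle libraries lay within the WT range, more tightly grouped. With fluoxetine, Tbca gave 562, 659, 587 and 623 in females and 604, 572, 591 and 514 in males. With lithium, Tbca gave 738, 624.8 and 637 in females and 564, 598, 624 and 600.5 in males. HT lithium female 1 was the highest of the 30, and 4 of 7 lithium libraries were above every HT vehicle library. Lithium against HT vehicle gave Tbca a log2 fold change of 0.10 (SE 0.0544, interval -0.01 to 0.21), with limma adjusted p = 0.880. Tbcb, Tbcd and Tbce, the other cofactors, had genotype log2 fold changes of -0.02, -0.05 and -0.0029, and Ttl, the tubulin tyrosine ligase, of -0.02. Leaving out HT vehicle female 1 gave 0.03 for Ttl, -0.0079 for Tbcb and -0.0062 for Tbce.

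The drug-treated HT libraries were also set against WT vehicle, which joins genotype and drug and shares the WT controls between both. Fluoxetine-treated HT libraries gave 0 members by limma and by edgeR (1.49% of all genes by limma), with 4 members at an unadjusted p under 0.05 by each of these tools (12.1% of all genes by limma). DESeq2 called 1 member, Tubb5, and gave 5 at an unadjusted p under 0.05. Tubb5 was 13484 ± 739 (SD, n = 8) in HT fluoxetine and 14989 ± 596 (SD, n = 8) in WT vehicle libraries, a difference of -10.1%. The log2 fold change was -0.15 (SE 0.0453, interval -0.25 to -0.06), with an adjusted p of 0.0994 by limma, 0.0932 by edgeR and 0.0394 by DESeq2. With 1 library left out at a time the limma adjusted p ran from 0.0558 to 0.239, and it was 0.0305 without HT vehicle female 1 and HT lithium male 4, which enter only the estimate of the spread. Of the 8 fluoxetine libraries, 6 were below every WT library and 2, HT fluoxetine female 4 at 14263 and male 2 at 14709, were inside the WT range. The summed excitatory neuron markers ran from 55488 to 70645 in WT vehicle and from 44014 to 63820 in HT fluoxetine libraries, and their part in the Tubb5 difference was not tested. The other members at an unadjusted p under 0.05 by limma were Tubg2 (-0.12), Tubb2a (-0.11) and Tubb3 (-0.09), all lower, where 5.24% of all genes were lower at that level. The count of members at that level was 8 without WT vehicle female 2. It was 2 without any 1 of HT fluoxetine females 1 and 2 and males 1 and 4, WT vehicle females 3 and 4 and WT vehicle male 1. Lithium-treated HT libraries gave 0 members against WT vehicle by limma, edgeR and DESeq2 (1.97% of all genes by limma), with 5, 5 and 6 at an unadjusted p under 0.05 (17.7% of all genes by limma). They were Tbca (log2 fold change 0.16), Tubb5 (-0.13), Mapt (-0.12), Tubg2 (-0.11) and Tubb4a (-0.17), with limma adjusted p from 0.122 to 0.207. Without HT lithium male 4 that count was 2, without WT vehicle female 4 it was 3, and without HT lithium male 2 or WT vehicle female 2 it was 12. It was 8 without any 1 of HT lithium females 1 and 2, HT vehicle female 1 and WT vehicle male 4. No member's groups were free of overlap in either comparison, where 0.565% and 0.725% of all genes were, and none separated all HT from all WT libraries, where 0.184% of all genes did. Fluoxetine against lithium within HT libraries gave 0 members, with Tube1 (log2 fold change -0.24, limma adjusted p = 0.691) at an unadjusted p under 0.05 by each tool (6.86% of all genes by limma), where 0% of all genes were called by limma. The count there was 0 without HT lithium female 1, 4 without HT lithium female 2, 3 without HT fluoxetine male 1 or HT lithium male 2, and 2 without any 1 of 8 other libraries. Without HT lithium male 4 the value of Tube1 was -0.19. No member separated fluoxetine from lithium libraries without overlap (0.0594% of all genes). Females against males gave 0 members (0.214% of all genes), with Tubd1 (0.17), Tbce (0.07) and Tubg1 (0.08) higher in females at an unadjusted p under 0.05 by each tool (8.05% of all genes by limma).

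Split by sex, the lithium fold changes of the members pointed in different directions. In HT females 31 of 40 were above 0 (median log2 fold change 0.063) and in HT males 27 of 40 were below 0 (median -0.087), beside all-gene medians of 0.00059 and -0.0029. No member passed the test in males (0.0773% of all genes did), in females (0% of all genes) or for the difference between the sexes (0% of all genes), by limma, edgeR or DESeq2. The difference gave 13, 12 and 12 members at an unadjusted p under 0.05 by these tools, where 10% of all genes were by limma, and lithium in males gave 9, 9 and 10 (13.8% of all genes by limma). For the difference, 12 of the 40 members were at that level with the higher lithium fold change in females, where 4.65% of all genes were. In males 8 of the 40 were at that level and lower, where 6.37% of all genes were. Tubb5 gave 15076, 14193 and 15825 in HT vehicle males and 12508, 14521, 13188 and 11513 in HT lithium males. Only HT lithium male 2 reached the range of the vehicle males. Tubb5 in females gave 12364, 14840.0, 13705 and 14336 in HT vehicle females and 14645, 14661 and 14341 in HT lithium females, and the lithium values lay within the vehicle range. The log2 fold change of Tubb5 was -0.22 (SE 0.0691) in males and 0.08 (SE 0.0691) in females, with a difference of 0.30 (SE 0.0978, limma adjusted p = 0.471). The female value of Tubb5 was 0.03 without HT vehicle female 1. Tubb4a gave 22435, 20568 and 23838 in HT vehicle males and 17787, 21420.2, 17918 and 15683 in HT lithium males, with overlap through HT lithium male 2 alone. Its difference between the sexes was 0.40 (SE 0.142, limma adjusted p = 0.471). Tuba1a, Tuba1b, Tuba4a, Tubb2a, Tubb3 and Mapre3 were also lower in lithium-treated males at an unadjusted p under 0.05, and Tbce, the alpha tubulin cofactor, was higher (log2 fold change 0.14). In females Tbca was the one such member by each tool (log2 fold change 0.20, limma adjusted p = 1), where 3.55% of all genes were by limma. Without HT vehicle female 1 the female median was 0.032 (28 of 40 above 0) and the count was 0, and without HT vehicle female 2 the count was 2.

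HT lithium male 4 held the lowest value of all 30 libraries for 21 of the 40 members, against 15.6% of all genes. The same library had the lowest summed excitatory neuron markers (42785, other HT lithium libraries 52622 to 62397), the highest neuroblast and olfactory bulb sum (36772) and the highest meningeal fibroblast sum (5707), and the part of these in the result was not tested. Mature oligodendrocyte sums were 78580 to 87081 in HT lithium males and 103640 to 127110 in HT vehicle males. Striatal sums were 6531 to 7084 and 7570 to 28427. Neither overlapped, with or without HT lithium male 4, whereas the excitatory neuron and the neuroblast and olfactory bulb sums of these groups did. The part of these sums in the lower values of lithium-treated males was not tested. Without HT lithium male 4, the members at an unadjusted p under 0.05 numbered 4 for lithium in males and 7 for the difference between the sexes, with medians of -0.054 and 0.093. Tubb5, Tubb4a, Tubb3 and Tuba1a then had log2 fold changes in males of -0.17, -0.23, -0.15 and -0.15, each with limma adjusted p = 0.726. The counts were also moved by other libraries. Without HT vehicle male 3 they were 2 for males and 4 for the difference, and without HT lithium male 2 they were 19 and 17. Without HT lithium female 1 the difference gave 8. Without HT vehicle female 1 and HT lithium male 4 together, the counts were 5 for males and 3 for the difference. In that fit 7.1% and 5.5% of all genes were at that level. Fluoxetine by sex gave 1 member at an unadjusted p under 0.05 for the difference, Tbce (-0.24, SE 0.0764, limma adjusted p = 0.779), and 0 called by limma, edgeR or DESeq2 (0% of all genes by limma; 5.96% at an unadjusted p under 0.05). That count of 1 was 5 without HT fluoxetine female 1 and 2 without any 1 of 8 other libraries. Fluoxetine gave 0 members in females (0% of all genes) and 0 in males (0.0178% of all genes) by each tool. At an unadjusted p under 0.05 there were 0 in females (3.85% of all genes by limma) and 2 in males (4.07%), Tbce (log2 fold change 0.18) and Tubb5 (-0.15). In females it was 3 without HT fluoxetine female 1, 2 without HT vehicle female 1 and 1 without HT vehicle female 4 or HT fluoxetine female 3. In males it was 4 without HT fluoxetine male 2 and 1 without HT vehicle male 3 or HT fluoxetine male 4. Genotype gave 0 members in females (0.256% of all genes) and 0 in males (0.226%) by each tool, with Tubg2 in females (log2 fold change -0.14, limma adjusted p = 0.853) at an unadjusted p under 0.05, against 5.17% of all genes, and 0 in males, against 4.32%. In females it was 0 without any 1 of WT vehicle females 3 and 4 and HT vehicle females 1 and 4, and 2 without WT vehicle female 2 or HT vehicle female 2. In males it was 1 without WT vehicle male 2. The genotype difference between the sexes gave 0 members (0% of all genes) and 0 at an unadjusted p under 0.05 by each tool (2.05% of all genes by limma), or 1 without HT vehicle male 3.

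**Figure D4:**
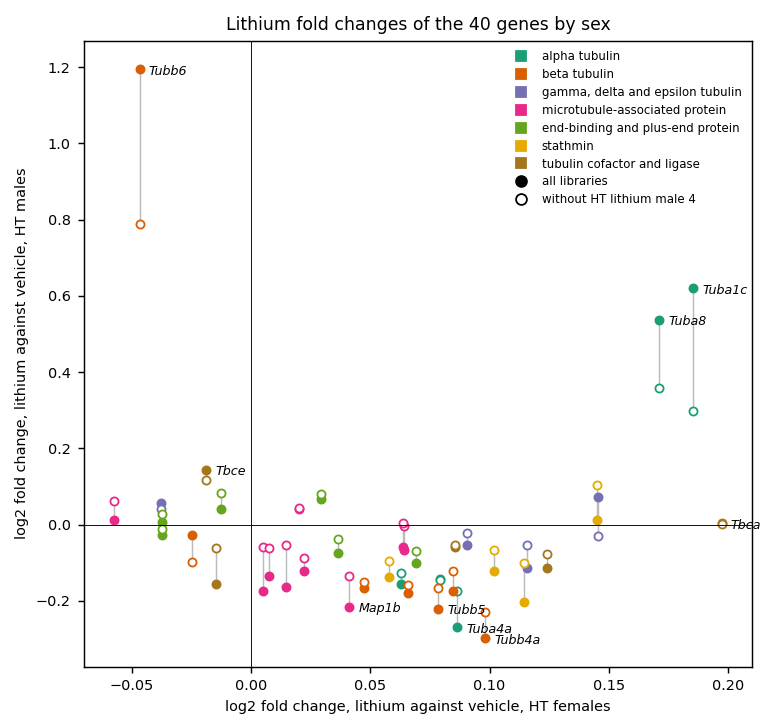
Log2 fold change of lithium against vehicle in HT females (x axis) and HT males (y axis) for the 40 members; filled points use all libraries, open points leave out HT lithium male 4, grey lines join the same gene, and colours mark the role. Tubb5, Tubb4a and Tuba4a lie right of 0 and below 0, and move toward 0 on the male axis without HT lithium male 4.

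Between libraries, many members followed the amount of neuroblast and olfactory bulb markers, a relation examined after the values had been seen. The list held 13 genes, all found, and its summed count ranged from 9828 to 24086 in WT vehicle, 12058 to 36607 in HT vehicle, 9666 to 23322 in HT fluoxetine and 11302 to 36772 in HT lithium libraries. The defining bulb genes Tbx21 and Eomes were near 0 in some libraries, as low as 2.84 and 3.43 normalized counts, and reached 273 and 976 in others. They made up a small part of the sum, which was at least 9666 in every library. Whether the other genes of the list varied with them is not shown here. Of the 40 members, 25 had a Spearman rho with the sum at an adjusted permutation p under 0.05, where 33.6% of 16811 genes did. A rho of at least 0.5 was found in 4 members (12.8% of all genes) and of at most -0.5 in 15 (13.3% of all genes), and the median rho was -0.44, against -0.0016 over all genes. All 19 kept their sign without the 2 libraries farthest from the median sum, HT vehicle female 1 and HT lithium male 4, and when values were centred on the 8 group means.

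Tubb6 followed the sum most closely, with rho = 0.93 and r = 0.95 over 30 libraries (permutation p = 1e-05 for each, the smallest the permutations can give, with adjusted p = 0.000193 and 9.87e-05). Its counts ran from 18.8 to 230.5 (HT lithium male 4), with HT vehicle female 1 second at 159. Tuba8, a divergent alpha tubulin, gave rho = 0.86 and r = 0.91 (adjusted permutation p = 0.000193 and 9.87e-05), from 195 to 627 counts, the highest in HT vehicle female 1. Tubb2b gave rho = 0.67 and r = 0.71 (permutation p = 0.0001 and 2e-05, adjusted 0.000974 and 0.000166), and Tbce rho = 0.56. Opposite in sign were Mapt (rho = -0.85, r = -0.88), Tuba4a (-0.81, -0.89) and Map6 (-0.74, -0.82), each at permutation p = 1e-05 and adjusted p = 0.000193 and 9.87e-05. These 3 were lowest in HT lithium male 4. Without the 2 farthest libraries r was 0.94 for Tubb6, 0.86 for Tuba8, 0.59 for Tubb2b, -0.83 for Mapt, -0.82 for Tuba4a and -0.74 for Map6. Values centred within groups gave r of 0.95, 0.95, 0.74, -0.87, -0.90 and -0.82 in the same order. Tubb5 had rho = -0.60 and Tubg2 rho = -0.46, whereas Tuba1a (-0.16), Map2 (-0.15), Tubb3 (-0.27), Tbca (-0.12) and Mapre1 (0.13) had a permutation p above the threshold. The part of this marker list in the group comparisons of Tubb5, Tubb2b and Mapt was not tested. On the log2 scale the residual SD had a median of 0.0976 over the members and 0.134 over all genes tested, and Tuba8, Tubb6 and Tubb2b lay at the 97.4th, 96.8th and 94.3rd percentile of genes of like level.

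**Figure D5:**
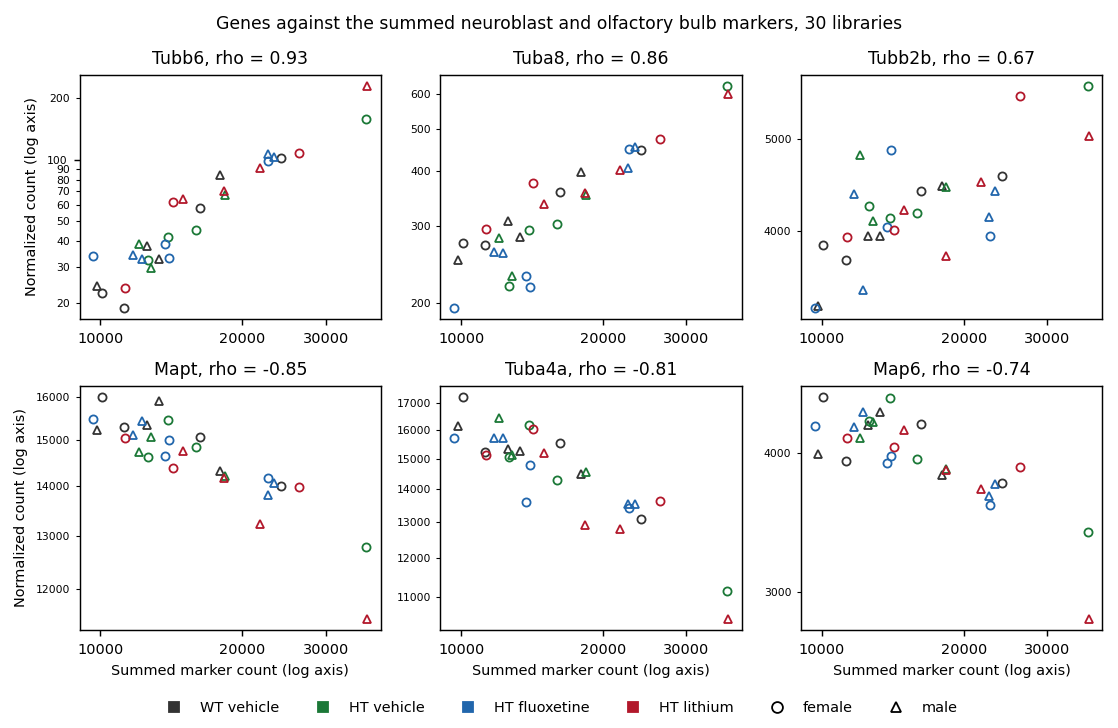
Normalized counts of 6 members (y axes, log scale) against the summed count of 13 neuroblast and olfactory bulb markers (x axes, log scale) in 30 libraries; colours mark the groups, circles female and triangles male libraries. Tubb6, Tuba8 and Tubb2b rise with the sum (rho = 0.93, 0.86 and 0.67), and Mapt, Tuba4a and Map6 decline (rho = -0.85, -0.81 and -0.74).

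A wider list of 92 tested genes around the microtubule, covering motors, severing enzymes, nucleation and minus-end proteins, further plus-end proteins, tubulin-modifying enzymes and kinases, had 0 called genes in each of the 7 comparisons between groups or sexes by limma, edgeR and DESeq2. At an unadjusted p under 0.05 by limma there were 2 for genotype (2.17% of the list, 6.6% of all genes), 0 for fluoxetine (2.63% of all genes) and 3 for lithium (3.26% and 5.72%). Against WT vehicle there were 8 with fluoxetine (8.7% of the list, 12.1% of all genes) and 16 with lithium (17.4% and 17.7%), no more than the share of all genes. With 1 library left out the count ran from 0 (HT vehicle female 1) to 3 for genotype, from 0 to 1 for fluoxetine and from 2 (HT lithium female 1) to 16 (HT vehicle female 1) for lithium. Those 16 were 17.4% of the list, where 10.1% of all genes were at that level. The count ran from 2 (WT vehicle female 3 or HT fluoxetine male 1) to 13 (WT vehicle female 2) for fluoxetine against WT, and from 5 (HT lithium male 4) to 30 (HT lithium male 2) for lithium against WT. For genotype, Tubgcp5, a gamma tubulin ring subunit, was at 719 ± 21.6 in WT and 773 ± 51.2 in HT vehicle libraries (limma adjusted p = 0.640), and Clip3, a relative of the plus-end protein CLIP-170, differed by -0.11 on the log2 scale (limma adjusted p = 0.707). For lithium, Fignl2, a severing enzyme relative, was at 49.4 ± 5.89 in HT vehicle and 65.0 ± 13.5 in HT lithium libraries (limma adjusted p = 0.820), and Ttll5, a polyglutamylase, at 913 ± 34.0 and 848 ± 50.4 (limma adjusted p = 0.825). Against WT vehicle, Dpysl2 (CRMP2), which binds tubulin dimers, gave -0.18 with fluoxetine (limma adjusted p = 0.176), and Camsap2, a minus-end protein, gave -0.10 with lithium (limma adjusted p = 0.122). The 23 motor genes had fold changes below 0 in 19 for genotype, 15 for fluoxetine and 19 for lithium, with medians of -0.019, -0.014 and -0.044 on the log2 scale. Without HT vehicle female 1 these were 11 (median 0.00046), 19 (-0.036) and 20 (-0.053), and without HT lithium male 4 the lithium count was 14 (-0.0096).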

How the data were processed

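The authors deposited 1 table of normalized signal for 30 libraries, in which each library's counts had been divided by a size factor. Per the submitters' processing notes, Salmon 0.11.2, DESeq2 1.19.11, R 3.6.0 and GRCm38 were used; the sources used here do not give the annotation release, filters or strand handling. Per the labels, libraries were stranded poly(A) from 1 batch. Of 18240 Ensembl identifiers, 18227 were paired with symbols. Since low values are whole multiples of what 1 read is worth, reads were recovered (100% of values within 0.01 of a whole number), giving 23771758 to 34307061 reads per library, so that the counting error of most members was small beside the spread between libraries.

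Main tests used limma 3.58.1 (R 4.3.3; robust, with an intensity trend) on the log2 of the normalized count + 1, in 1 fit with 8 group means and 22 residual degrees of freedom, over 16824 genes with a mean of at least 10, with Benjamini-Hochberg adjustment over all genes tested. The main test is limma because the deposited values are not counts. edgeR 4.0.16 (TMM, quasi-likelihood) and DESeq2 1.42.0 on the recovered reads were alternatives, with pseudocounts of 0.5 and 5, no filter, a mean of at least 50, a replicate block, only the groups compared, each library left out, and 2 libraries that stand apart left out together. The fits were tested on simulated data with independent genes and a fixed dispersion. That simulation does not cover libraries in which many genes shift together. Each group comparison averages the contrasts of both sexes. The log2(value + 1) scale understates fold changes of low genes. Replicate pairs of a group differed by more than sampling noise (chi-square per degree of freedom 4.79 to 31.9 over 42 pairs), so each library counted as 1 sample. Marker sums were related to members over 30 libraries by Spearman and Pearson correlation with 100000 permutations, adjusted over 16811 genes. Annotation and sequences are from GENCODE M21.

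Same-numbered libraries deviated together in every pair only for genotype in males (r = 0.149, 0.204 and 0.309). The largest values were for fluoxetine in females, at 0.495, 0.536 and 0.617, with the remaining pair at -0.119. The numbers are those of the sample titles, and some HT lithium female libraries carry another number in their library names. The labels do not say that a number marks a litter or batch. The members and lists were chosen with earlier results of these data known. Values in every library are given for the 8 members with the smallest unadjusted p over the genotype, fluoxetine and lithium comparisons, and for Mapt, Mapre1 and Mapre3. Beside these, members are named by role, and Tubb6, Tuba8, Tuba4a and Map6 after their values were seen.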

Additional observations from a re-analysis of the deposited data

Results flagged for a closer look

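Tubb2b in HT vehicle female 1 was at 5688 normalized counts, while the other 3 libraries of that group lay between 4129.8 and 4243. Its gap to the nearest was 0.927 of the group's range, beyond the 95% limit for 4 values. Of 84 groups of 4 libraries examined, 1 passed this limit, where chance gives about 5%. The same library had a neuroblast and olfactory bulb marker sum of 36607, against 12606 to 15929 in the other 3, and the part of these markers in the Tubb2b value was not tested.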

How the results depend on the processing

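In each comparison the count of members called was 0 under each alternative run for it, leaving out each library in turn included (0 to 0), except for fluoxetine-treated HT against WT vehicle, where it was 1 (Tubb5) with DESeq2 on the recovered reads and 1 without both HT vehicle female 1 and HT lithium male 4. With the replicate block it stayed at 0, with a genotype median of -0.034, 3 members at an unadjusted p under 0.05 for fluoxetine (1 without it) and 10 for the lithium difference between the sexes (13 without it). Genotype in males and fluoxetine in females gave no member called with the block. Over all genes, genotype calls were 123, but 68 with a mean of at least 50; fluoxetine calls were 6, but 11 with only the groups compared and 12 with DESeq2; lithium calls were 15, but 5 with only the groups compared. Against WT, fluoxetine calls were 251, but 165 with a mean of at least 50, and lithium calls 332, but 208 with only the groups compared. DESeq2 gave 14 for fluoxetine against lithium (0 by limma) and 79 for sex (36 by limma). Within 1 sex, fits on only the groups compared gave 25 for genotype in females (43 in the shared fit), 19 for genotype in males (38), 7 for fluoxetine in males (3) and 3 for lithium in males (13); DESeq2 gave 10 and 43 for the last 2. Leaving out 1 library gave, at an unadjusted p under 0.05, 0 to 1 members for genotype, 0 to 5 for fluoxetine, 0 to 4 for lithium, 2 to 8 and 2 to 12 for fluoxetine and lithium against WT, 0 to 4 for fluoxetine against lithium, 2 to 4 for sex, and 1 to 5 and 4 to 17 for the fluoxetine and lithium differences between the sexes. Fits on only the groups compared were run for all but females against males; those beyond genotype, fluoxetine and lithium were added after the data were seen, and gave Tubb5 an adjusted p of 0.0660 by limma for fluoxetine against WT. The lithium sex difference of Tubb5 was 0.19 and of Mapt 0.012 without the 2 libraries together. Per length, the longest transcript gave Stmn1 12984, Tubb5 5658, Mapt 2883, Mapre2 1988.5, Mapre3 1978, Tbca 894 and Mapre1 321. Counting error weighs most on the members of lowest mean count, Tuba1c, Tubb6 and Tube1 (48.8, 64.1 and 67.6), whose residual SDs on the log2 scale were 0.486, 0.906 and 0.193.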
